A study of Mus musculus with 6 samples.

Results

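The genes described here are the collagen chains, the enzymes and chaperones that fold and crosslink collagen, and a set of matrix and stellate cell genes, as measured in mouse liver with and without *Txndc5*. They were chosen by name: every listed symbol of the form *Col1a1*, plus *Serpinh1*, *P4ha1*, *P4ha2*, *P4ha3*, *Plod1*, *Plod2*, *Plod3*, *Lox*, *Dcn*, *Lum*, *Des*, *Reln*, *Pdgfrb*, *Acta2*, *Timp1*, *Timp2*, *Sparc* and *Tgfb1*. This gave 52 of the 16123 listed genes, 34 collagen chains and 18 others. The study asked how the loss of *Txndc5*, which encodes a protein disulfide isomerase of the endoplasmic reticulum, changes the liver transcriptome. Poly-A RNA was sequenced from 3 pools of wild-type (WT) livers, strain C57BL/6Rj, and 3 pools of *Txndc5*-deficient (KO) livers, strain C57BL/6JRj-Txndc5<em2Mdnp>/Ciba, with RNA from 3 mice in each pool. All mice were males, 2 months old at the start, that ate a purified chow diet for 4 weeks and were then fasted for 16 h before sacrifice. The KO allele lacks exon 3, which was removed with CRISPR guides on either side, in every cell of the body and in 1 line, so that no result is specific to stellate cells.

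Collagens are trimers of chains that share a long run of Gly-X-Y repeats. In the endoplasmic reticulum, prolines and lysines of the chains are hydroxylated by the P4H and PLOD enzymes, disulfide isomerases and HSP47, the product of *Serpinh1*, assist the assembly of the trimer, and outside the cell lysyl oxidases crosslink the fibrils. In the healthy liver the fibrillar collagens are made mainly by stellate cells and portal fibroblasts, and stellate cells that turn into myofibroblasts during injury raise the type I and type III chains together with *Acta2* and *Timp1*.

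The deposited table holds 1 value per genotype for each gene, in reads normalised by DESeq2 size factors, and no value per library. From its digits the whole reads of each library were recovered for genes with a sum of up to 1100 normalised reads over the 6 libraries. Of the 52 genes, 21 with a sum of 60 to 1100 are given per library, 19 with a sum under 60 hold between 1 and 32 reads in all, 11 lie above that sum and are given by the authors' WT and KO values alone, and *Col5a3* could not be resolved because 2 sets of reads were left. The recovered libraries are called a, b and c within each genotype, in order of decreasing size factor, and carry no pool number. The libraries held 44040160 to 46050030 clean reads, of which 91.63 to 93.66% were mapped. The target checked the labels: *Txndc5* (chr13:38500079-38528824 in GENCODE M21 on GRCm38, minus strand) had an authors' value of 2697 normalised reads in WT and 90.8 in KO, 29.7-fold lower. Nothing in the labels says how mice were assigned to pools, so p-values measure the spread between these pools. In bulk liver, fewer cells of a type and less RNA per cell cannot be told apart.

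Per kilobase of gene length, the levels of these genes differed widely in WT liver. *Col18a1*, whose C-terminal fragment is endostatin, was the highest with 5597 normalised reads per kilobase, followed by the fibril-binding proteoglycan gene *Dcn* with 688, the lysyl hydroxylase gene *Plod1* with 632, the collagen-binding glycoprotein gene *Sparc* with 253 and *Tgfb1* with 211. The basement membrane chains *Col4a1* and *Col4a2* stood at 107 and 76.5. The type I chains *Col1a2* and *Col1a1* stood at 30.97 and 14.4, and the type III chain *Col3a1* at 17.1. *Acta2*, the smooth muscle actin gene used as a marker of myofibroblasts, had 19.7, *Timp1* 2.11 and *Lox* 0.18 normalised reads per kilobase. The 3 genes among the 52 that were also listed as stellate cell markers were all detected, with *Des* at 46.2, *Reln* at 42.5 and *Pdgfrb* at 24.0. In bulk liver these levels are not assigned to a cell type.

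**Figure D1:**
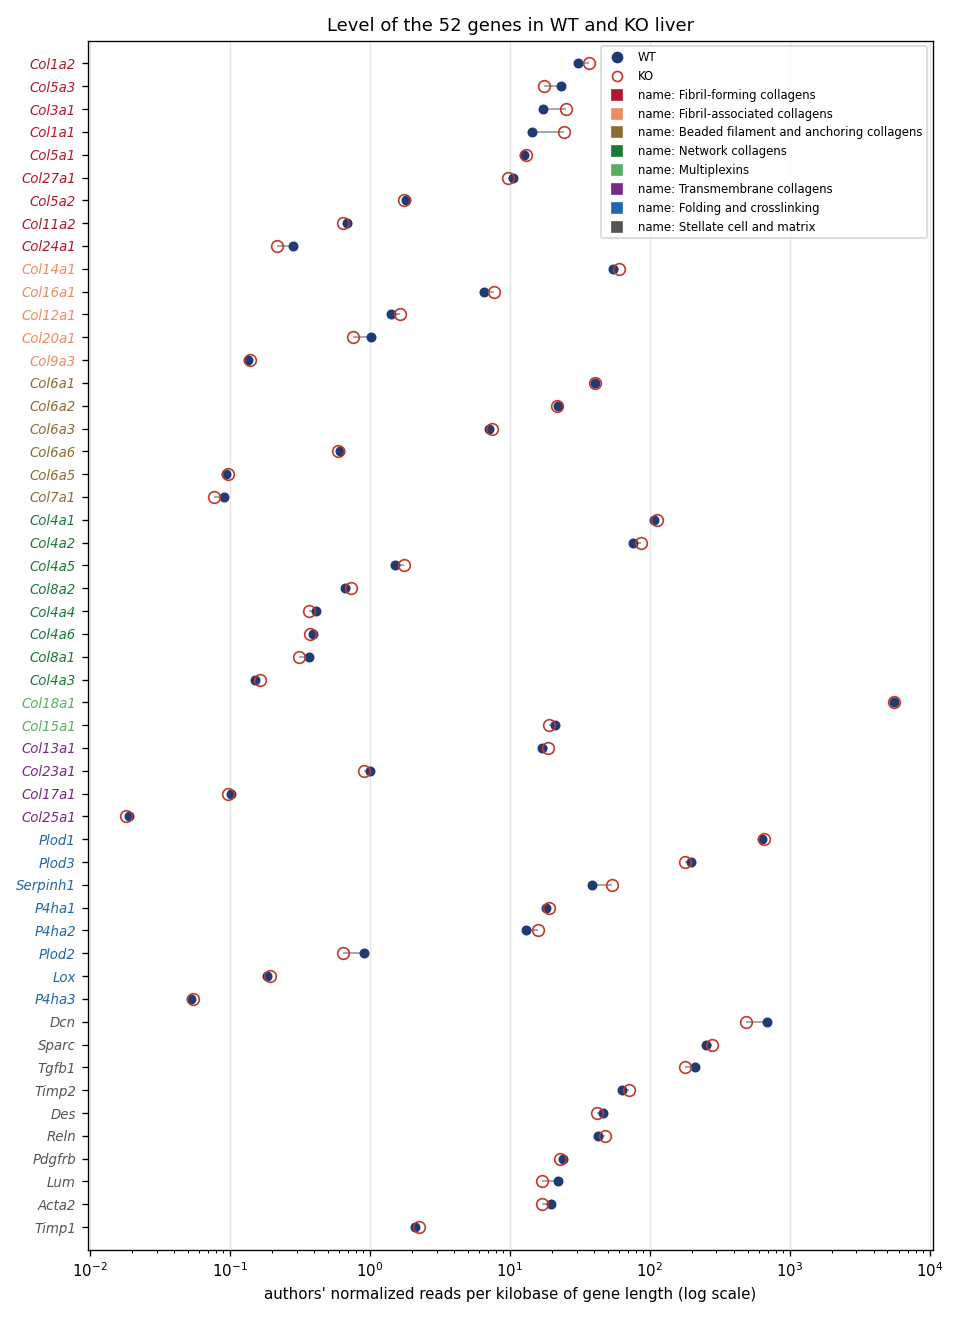
Authors' WT (filled) and KO (open) values of the 52 genes, in normalised reads per kilobase of gene length on a log axis. Names are coloured by class. Each symbol is 1 value per genotype, and the authors' processing drew the WT and KO values of a gene toward each other. *Col18a1* is highest at 5597 in WT, the type I and type III chains lie between 14.4 and 36.7, and *Col25a1* is lowest.

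Between the genotypes, 33 of the 52 genes had a mean of at least 10 normalised reads and were compared by the log2 ratio of the authors' KO value to their WT value. These ratios are drawn toward 0 by the authors' processing and have no spread of their own. *Col1a1* (0.76) and *Col3a1* (0.56) lay above 0.5, beside 2.48% of the 11367 genes that passed the same filter, and *Dcn* (-0.50) lay below -0.5, beside 7.9% of them. In either direction that is 3 of 33 genes, against 10.4% of all genes. With the ratios centred on the median of all genes the split of 2 higher and 1 lower became 3 higher and 0 lower, so *Dcn* no longer lay below the limit. The ratio was above 0 for 19 of the 33 genes and for 42.3% of all genes, and the median was 0.05 for the 33 and -0.05 for all genes. Among the 2870 genes with a mean of 100 to 300 normalised reads, 99.4% had a lower ratio than *Col1a1*, 98.3% a lower ratio than *Col3a1* and 97.5% a lower ratio than *Serpinh1* (0.48). For *Dcn*, 2.05% of the 1071 genes with a mean of 1000 to 3000 lay lower, and the other 29 genes lay between the 5th and the 95th percentile of the genes of their level.

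**Figure D2:**
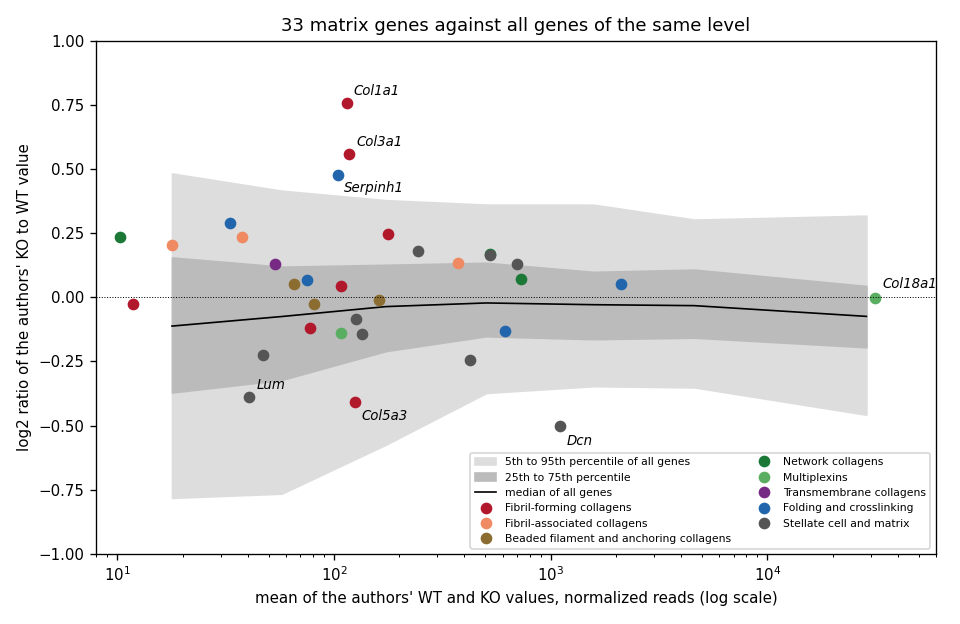
Log2 ratio of the authors' KO to WT value against the mean of both values in normalised reads (log axis) for the 33 genes, 1 point each, coloured by class; the grey bands give the spread of all 11367 genes by level and the line their median. *Col1a1*, *Col3a1* and *Serpinh1* lie above the wider band and *Dcn* below it.

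The fibril-forming collagens build the banded fibrils of the interstitium, and 9 of them were listed. The *Col1a1* chain of type I collagen (chr11:94936224-94953042, plus strand) had 222, 58.9 and 169 normalised reads in KO libraries a, b and c, and 65.3, 96.7 and 78.3 in the WT libraries. KO libraries a and c lay above every WT library and KO library b below every one of them, so the groups overlap. The means were 150.0 ± 83.1 in KO and 80.1 ± 15.8 in WT (SD, n = 3 each), a ratio of 1.87, with a two-sided exact permutation p of 0.4, where 0.1 is the smallest p that 3 against 3 libraries allow. *Col3a1*, the single chain of type III collagen (chr1:45311538-45349706, plus strand), had 271, 59.9 and 105 normalised reads in KO and 118, 77.3 and 75.8 in WT. Here KO library a alone lay above the WT libraries, KO library b lay below them, and KO library c was among them. The ratio of the means was 1.61 (145 ± 111 against 90.2 ± 23.7, SD, n = 3 each, two-sided exact permutation p = 0.7).

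The partner chain of *Col1a1* moved less. *Col1a2* had 210.3, 131 and 238 normalised reads in KO and 133, 148 and 199 in WT, with the groups overlapping (193 ± 55.5 against 160 ± 34.8, SD, n = 3 each, two-sided exact permutation p = 0.5). Per kilobase, the ratio of *Col1a1* to *Col1a2* was 0.93, 0.39 and 0.62 in KO libraries a, b and c and 0.43, 0.57 and 0.34 in the WT libraries, so KO library b lay among the WT libraries and the other KO libraries above them. Type V collagen, which sits inside type I fibrils, was represented by *Col5a1* with 119, 100.4 and 109.5 normalised reads in KO and 107, 88.7 and 122 in WT, with the smallest SE of the 21 genes in the limma test. The reads of *Col5a1* were chosen among 16 sets, with sets of wide spread dropped, so this SE depends on that choice. The partner chain *Col5a2*, whose 3′ end lies 24614 bases from that of *Col3a1* on the opposite strand, had 20.6, 8.69 and 5.65 in KO and 22.0, 11.4 and 2.45 in WT. Library a was the highest in each genotype for *Col5a2*, and the neighbouring *Col3a1* had the same order of libraries in WT and another order of libraries b and c in KO. *Col27a1* had 77.0, 72.4 and 72.3 in KO and 145, 37.5 and 61.1 in WT, so the 3 KO libraries agreed closely and lay inside the WT range. *Col5a3*, the remaining type V chain, had authors' values of 143 in WT and 108 in KO.

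**Figure D3:**
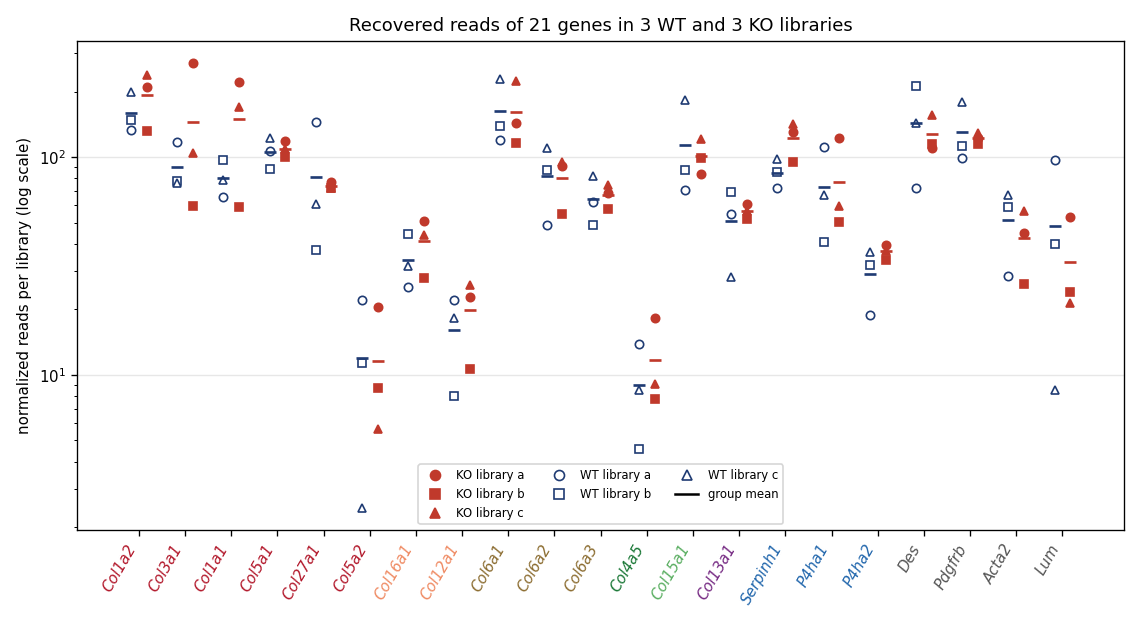
Normalised reads per library on a log axis for the 21 genes whose reads were recovered and summed to 60 to 1100; filled symbols are KO, open symbols WT, symbol shapes mark libraries a, b and c, and bars mark the group means. The WT and KO symbols of every gene overlap, and *Col1a1* and *Col3a1* show KO library a high (222 and 271) and KO library b low (58.9 and 59.9).

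Fibril-associated collagens lie on the surface of fibrils and link them to other matrix. The most abundant, *Col14a1*, had authors' values of 355 normalised reads in WT and 389 in KO. *Col16a1* had 51.1, 28.0 and 44.0 normalised reads in KO and 25.3, 44.4 and 31.8 in WT, and *Col12a1* had 22.9, 10.6 and 26.0 in KO and 22.0, 7.96 and 18.3 in WT. Both sets overlap, with KO library b lowest of the KO libraries in each.

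Type VI collagen forms beaded filaments around cells from 3 different chains, and the 3 of its 5 listed genes with a sum of at least 60 had close means in both genotypes. *Col6a1* had 143, 116 and 225 normalised reads in KO and 120.03, 139 and 230 in WT, means of 161 ± 56.6 and 163 ± 58.8 (SD, n = 3 each). *Col6a2*, 85161 bases away on the same strand of chromosome 10, had 90.7, 55.0 and 94.8 in KO and 48.99, 87.6 and 110.1 in WT. *Col6a3* had 68.6, 57.9 and 74.5 in KO and 62.1, 48.9 and 81.9 in WT. Library c was the highest in each genotype for all 3 chains. The other type VI genes, *Col6a5* and *Col6a6*, held 6 and 25 reads over the 6 libraries. The log2 ratios of the authors' values for *Col6a1*, *Col6a2* and *Col6a3* were -0.01, -0.03 and 0.05.

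Network collagens form the sheets of basement membranes, and type IV genes lie as head-to-head pairs. *Col4a1* (chr8:11198423-11312826, minus strand) and *Col4a2* (chr8:11312805-11449287, plus strand) encode the chains found in nearly all basement membranes. Their annotated 5′ ends overlap by 22 bases, which are shown because the first transcribed bases of both genes lie in them, one gene read on each strand. The 41 of the 52 genes that matched a RefSeq promoter table (GRCm38.p6) include both, and the overlap, chr8:11312805-11312826 on the plus strand with 72.7% G or C, reads 5′ to 3′ as follows, in lower case throughout because no motif was searched.
*Col4a1*/*Col4a2* overlap: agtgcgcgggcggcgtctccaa
*Col4a1* had authors' values of 711 normalised reads in WT and 747 in KO, and *Col4a2* 494 in WT and 556 in KO. Per kilobase the ratio of *Col4a1* to *Col4a2* was 1.40 in WT and 1.31 in KO. The other pairs were low: *Col4a3* and *Col4a4*, 71 bases apart, held 8 and 19 reads over the 6 libraries. *Col4a6* held 15 reads, and *Col4a5*, 1308 bases away on chromosome X, had 18.3, 7.72 and 9.03 normalised reads in KO and 13.9, 4.55 and 8.56 in WT, with the groups overlapping.

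The multiplexins, basement membrane collagens that release endostatin-like fragments, stood far apart in level. *Col18a1*, which hepatocytes express, had authors' values of 31573 normalised reads in WT and 31489 in KO, the ratio closest to 1 among the 33 genes. *Col15a1* had 83.8, 99.4 and 121 in KO and 71.0, 87.6 and 182 in WT. WT library c stood highest and the KO libraries lay within the WT range. The transmembrane collagen *Col13a1* had 60.96, 52.1 and 56.5 in KO and 54.7, 69.4 and 28.1 in WT, with WT library c lowest.

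Among the folding and crosslinking genes, *Serpinh1* came closest to separating the genotypes. HSP47, its product, is the collagen-specific chaperone of the endoplasmic reticulum. *Serpinh1* (chr7:99345376-99353239, minus strand) had 131, 94.6 and 142 normalised reads in KO and 71.9, 85.3 and 97.8 in WT. KO libraries a and c lay above all WT libraries and KO library b between WT libraries b and c. The means were 123 ± 24.9 in KO and 85.0 ± 12.99 in WT (SD, n = 3 each), a ratio of 1.44, with a two-sided exact permutation p of 0.2. It was the 1 gene of the 21 whose difference in means was larger than the SD of each group. *P4ha2*, a catalytic subunit of prolyl 4-hydroxylase, had 39.6, 33.8 and 37.3 in KO and 18.8, 31.8 and 36.7 in WT, with a ratio of the means of 1.27 and the same p of the two-sided exact permutation test, 0.2. Another catalytic subunit, *P4ha1*, had 122, 50.2 and 59.8 in KO and 111, 40.9 and 67.3 in WT, with library a high in each genotype. Of the lysyl hydroxylases, *Plod1* had authors' values of 2067 normalised reads in WT and 2143 in KO and *Plod3* 646 and 590. *Plod2*, the hydroxylase of the telopeptides, held 19 reads, *Lox* 6 and *P4ha3* 1 over the 6 libraries.

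Of the 10 stellate cell and matrix genes, *Dcn* had the ratio of the authors' values farthest from 1 among those with a mean of at least 10. *Dcn*, the gene of the small proteoglycan decorin (chr10:97479609-97518143, plus strand), had authors' values of 1296 normalised reads in WT and 915 in KO. Its reads per library lie above the recoverable range, so no spread is given. *Lum*, the gene of the related proteoglycan lumican, lies 46984 bases downstream on the same strand and had 53.3, 24.1 and 21.5 normalised reads in KO and 97.2, 39.8 and 8.56 in WT. The WT libraries of *Lum* spanned the whole KO range. The stellate and pericyte genes *Pdgfrb*, the receptor of PDGF-BB, and *Des*, the intermediate filament desmin, also overlapped. *Pdgfrb* had 123, 115 and 129 in KO and 99.6, 113 and 180 in WT, and *Des* had 110, 115 and 157 in KO and 71.9, 213 and 144 in WT. For both, the KO libraries lay within the WT range, which was wider. *Acta2* had 45.0, 26.1 and 56.5 in KO and 28.6, 59.1 and 67.3 in WT, so the marker of myofibroblasts lay lower in the KO mean (42.5 ± 15.3 against 51.7 ± 20.4, SD, n = 3 each, two-sided exact permutation p = 0.5). *Timp1*, the inhibitor of metalloproteinases that rises in injured liver, held 10 reads in all. Among the abundant genes of this class, the authors' values were 229 in WT and 259 in KO for *Timp2*, 668 and 731 for *Sparc*, 497 and 558 for the stellate cell glycoprotein gene *Reln*, and 463 and 391 for *Tgfb1*.

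The 19 genes with a sum under 60 normalised reads comprised 15 collagen chains with *Plod2*, *Lox*, *P4ha3* and *Timp1*. Together they held 113 reads in the KO libraries and 135 in the WT libraries. A read was seen in every library for 3 of them, and 11 held 10 reads or more, among which no gene had KO and WT libraries that did not overlap. A limma fit of all sums up to 400, which held these 19 genes and the 9 with a sum of 60 to 400, called 0 of the 28, with 0 at an unadjusted p under 0.05.

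The difference between the genotypes was tested with limma on log2(normalised reads + 1), with the Benjamini-Hochberg adjustment over all genes tested. No adjusted p was under 0.05 for the 9 genes with a sum of 60 to 400 or the 12 with a higher sum, beside 0.0301% of 3325 genes with a sum of 60 to 400 and 0.0174% of 5751 genes up to 1100, which is 1 gene in each fit, *Moap1*. No unadjusted p was under 0.05 among the 21, beside 1.92% and 1.81% of all genes, and edgeR likewise gave 0 of the 21 at either level, beside 0.0% of all genes adjusted and 1.95% and 1.7% unadjusted. The KO and WT libraries overlapped for all 21, beside 5.68% and 5.58% of all genes whose libraries did not. The limma estimate was positive for 15 of the 21 and negative for 6. *Serpinh1* had the lowest p of the 21, with an estimate of 0.51 (SE 0.332, 95% interval -0.25 to 1.28, adjusted p = 0.9995). For *Col1a1* the estimate was 0.72 (SE 0.515, 95% interval -0.47 to 1.90), for *Col3a1* 0.43 (SE 0.552, 95% interval -0.84 to 1.70) and for *Col1a2* 0.25 (SE 0.367, 95% interval -0.60 to 1.09). The narrowest interval was that of *Col5a1*, from -0.66 to 0.78, a gene whose reads rest on a step that dropped sets of wide spread. The widest was that of *Lum*, from -1.90 to 1.69. The interval reached 1 or more for 13 of the 21 genes and -1 or less for 7. Without KO library b the *Col1a1* estimate rose to 1.28 (SE 0.424, adjusted p = 0.9998, unadjusted p under 0.05), and without KO library a the *Col3a1* estimate turned to -0.15.

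**Figure D4:**
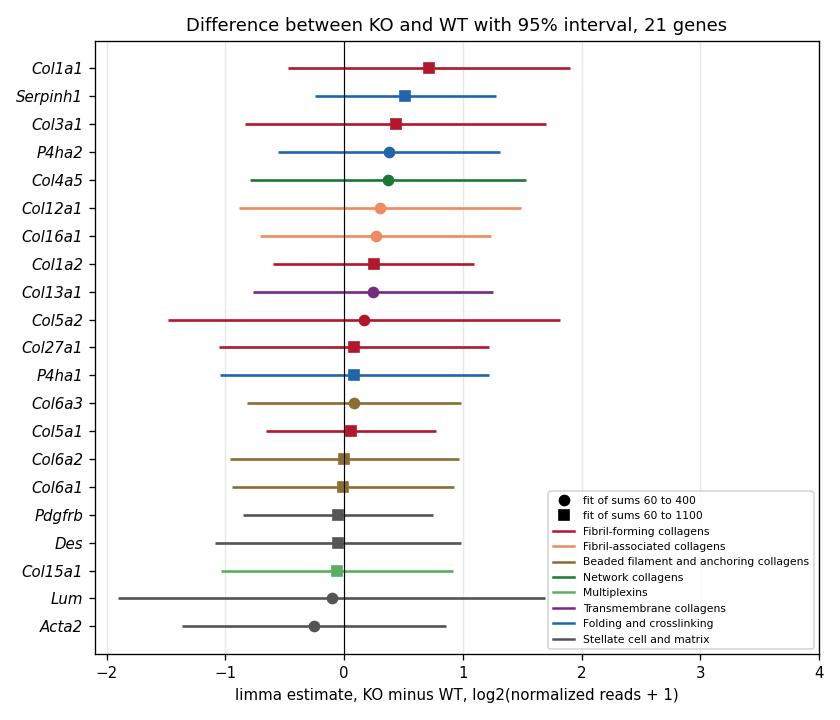
Limma estimate of KO minus WT on the log2(normalised reads + 1) scale with its 95% interval for the 21 genes; circles come from the fit of sums of 60 to 400, squares from that of 60 to 1100, colours mark the class. Every interval includes 0, and *Col1a1* (0.72), *Serpinh1* (0.51) and *Col3a1* (0.43) have the highest estimates.

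Libraries of the same genotype differed from each other across these genes. KO library a was above every WT library for 9 of the 21 genes and below none, KO library c was above for 5 and below for none, and KO library b was above for 0 and below for 5. The same shares over all genes were not calculated, so these counts cannot be read as particular to the 21 genes. Summed over the 6 fibril-forming chains with recovered reads, the KO libraries had 920, 432 and 700.0 normalised reads and the WT libraries 590, 459 and 539, so that KO library b lay below every WT library and the other KO libraries above them. Over the 3 folding genes the sums were 293, 179 and 239 in KO and 202, 158 and 202 in WT, with KO library b among the WT libraries. The summed markers of each of 3 other tissues stood high in KO library a or in KO library c, not in both. *Adipoq* and *Plin1*, the 2 adipocyte markers listed, held 77.0 normalised reads together in KO library a, 10.6 and 2.26 in KO libraries b and c, and 0, 6.82 and 0 in WT. The 2 skeletal muscle markers, *Ckm* and *Acta1*, held 30.5 in KO library c and 1.63 to 9.10 in the other libraries, and the 3 exocrine pancreas markers, *Prss2*, *Cela2a* and *Cpa1*, held 68.9 in KO library c and 10.7 to 26.9 in the others. Their part in the higher *Col1a1* values of KO libraries a and c and the higher *Col3a1* value of KO library a was not tested.

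**Figure D5:**
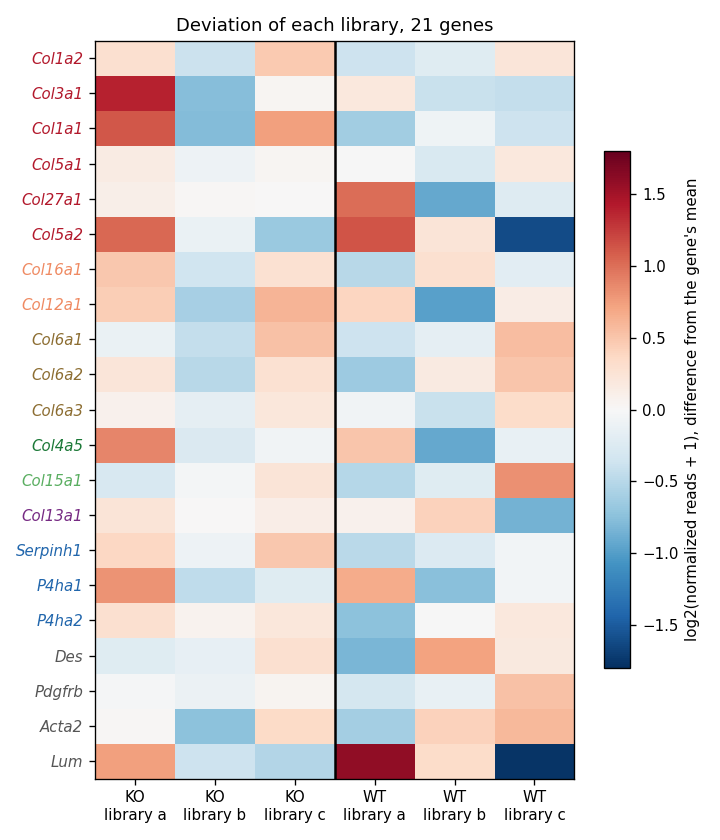
Deviation of each library from the mean of the gene over the 6 libraries, in log2(normalised reads + 1), for the 21 genes (rows, by class) in the 3 KO and 3 WT libraries (columns); red is above and blue below the mean. KO library b is blue for most collagens and KO library a red for *Col1a1* and *Col3a1*, and WT library c is red for the type VI chains and blue for *Lum*.

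Listed markers of stellate cells were checked in the same way. Of 12 markers, 12 had a mean of at least 10 normalised reads, with a median log2 ratio of the authors' values of -0.12 beside -0.05 for all genes. None exceeded 0.5, beside 2.48% of all genes. *Rgs5* (-0.98), a pericyte gene, and *Hgf* (-0.56), the hepatocyte growth factor made by stellate cells, lay below -0.5, beside 7.9% of all genes. *Hgf* had 26.7, 3.86 and 6.77 normalised reads in KO and 55.5, 5.69 and 12.2 in WT, with the groups overlapping. The summed reads of the 7 markers that could be resolved were 396 to 510 in KO and 570 to 672 in WT. Without *Rgs5*, which was chosen after its values were seen, the sums overlapped, at 358 to 444 in KO and 421 to 543 in WT. *Rgs5* had 109.0, 37.7 and 38.4 in KO and 251, 125 and 63.6 in WT (limma estimate -1.20, SE 0.607, adjusted p = 0.9995). The retinoid esterifying enzyme gene *Lrat* had 41.9, 25.1 and 24.8 in KO and 66.9, 29.6 and 37.9 in WT.

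The other genes of the collagen pathway were read from lists that hold none of the 52. Of the collagen biosynthesis partners, 12 had a mean of at least 10 and none lay beyond 0.5, from *Fkbp14*, a prolyl isomerase (-0.42), to the collagen galactosyltransferase *Colgalt1* (0.12), with a median of -0.07. The summed reads of the 9 partners that could be resolved, all weakly expressed, were 393 to 422 in KO and 430.4 to 495 in WT. Over all 14 listed partners the authors' values went the other way, with sums of 32710 in WT and 34732 in KO. Most of this was *P4hb*, at 26701 in WT and 28750 in KO. How often such sums separate the genotypes among all genes was not calculated. Of the genes for propeptide cleavage and crosslinking, 9 passed and none lay beyond 0.5. Their highest was *Adamts14* (0.44), a procollagen N-proteinase with 9.91, 11.6 and 19.2 normalised reads in KO and 8.98, 7.96 and 8.56 in WT, all KO libraries above all WT libraries (limma adjusted p = 0.9992). Their lowest was *Pcolce2* (-0.24), an enhancer of procollagen C-proteinase with 22.1, 23.2 and 16.9 in KO and 25.3, 28.4 and 23.2 in WT, where the highest KO and the lowest WT library differed by less than 1 read (limma adjusted p = 0.9992). Of the matrix turnover genes, 7 passed, with a median of 0.34, from *Mmp2* (-0.19) to *Mmp9* (0.56), a gelatinase gene. Of the TGF-beta axis, 12 passed with a median of 0.03, and the receptor gene *Tgfbr1* (-0.59) was the lowest. Of the 49 genes of these and the cell marker lists in a limma fit, 0 had an adjusted p under 0.05, 1 an unadjusted p under 0.05, beside 1.92% and 1.81% of all genes, and 4 had libraries that did not overlap, beside 5.68% and 5.58% of all genes.

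Markers of the other cell types of liver were read beside these values, and ratios of their RNA do not give the number of cells. The median log2 ratio of the authors' values was -0.15 for 5 hepatocyte markers (*Apoa1* -0.40 to *Alb* 0.00), -0.08 for 6 markers of sinusoidal endothelium (*Lyve1* -0.35 to *Kdr* 0.11), -0.01 for 6 markers of portal fibroblast and mesothelium (*Msln* -0.996 to *Fbln2* 0.34), -0.22 for 3 markers of smooth muscle (*Tagln* -0.37 to *Myh11* -0.01) and -0.02 for 5 markers of cholangiocytes (*Krt7* -0.32 to *Epcam* 0.51). It was 0.46 for 5 Kupffer cell markers (*Clec4f* -0.05 to *Marco* 0.62) and 0.67 for 4 red cell genes (*Hba-a2* 0.49 to *Hbb-bs* 0.79). Of these, 2 Kupffer cell markers and 3 red cell genes lay above 0.5, beside 2.48% of all genes. The part of these cells in the collagen values was not tested.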

How the data were processed

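Poly-A RNA of 3 WT and 3 KO pools, grouped by their titles, was sequenced by the authors' service. The submitters' processing notes name HISAT2, StringTie, Cufflinks, GATK, Bowtie2, RSEM and mm10 without versions or roles. For each gene the table deposited by the authors gives a signal for WT and for KO, in reads over DESeq2 size factors. Shrunken log2 ratios and p-values of their own comparison are in columns that were not used. Ratios were calculated from the WT and KO signals, which hold the same shrinkage and so are not plain means of 3 libraries. For example, *P4ha3* had no read in a WT library and a WT signal of 0.124. Counts of clean reads and the percent mapped were deposited by the authors per library. Gene positions came from GENCODE M21 on GRCm38, and all 52 genes matched.

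Whole reads per library were recovered from the 15 digits of the deposited signal. Values that recur in at least 20 genes gave the worth of 1 read, and sets of reads were enumerated within 2.5 times the rounding error. All 8081 genes with a sum of normalised reads up to 400 were resolved. For sums up to 1100 several sets remained. The set that gave back the log2 ratio of the deposited KO and WT signals under the shrinkage of DESeq2 1.42.0 was kept. Sets with a dispersion above 0.5 were dropped whatever ratio they gave. For *Col1a2* and *Col5a1* a further set gave back the ratio and was dropped for its dispersion alone (1.77 and 2.01). This step was chosen after the data were seen. The step set the reads of 9 of the 21 genes, *Col1a1*, *Col3a1*, *Col1a2* and *Serpinh1* among them. It resolved 1468 of 1578 genes from 600 to 1100. In genes with known reads treated as if their sum were 800, 279 of 300 were resolved, 279 of them right, and as if it were near the upper end, 254 of 300, 253 of them right. The recovered size factors ran from 0.818 to 1.31. Recovered reads carry the counting error of each library.

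The design assumed limma on sums of 60 to 400, and sums up to 1100 were added so that the type I and type III chains could be fitted. limma 3.58.1 (R 4.3.3) used a pseudocount of 1 and genotype alone, edgeR 4.0.16 was an added alternative, and both were tested on simulated data. For single genes, group means were compared by exact permutation, two-sided (scipy 1.17.1). Ratios of the authors' values have no replicate and no test. The alternatives changed the pseudocount, the filters, the scaling, the model terms and the libraries. Every gene with a sum of at least 60 was named with its values, the rest by counts, and from each other list the highest and lowest log2 ratio, of which 1 is not reported here; *Lrat*, *Hgf* and the markers of other tissues were named in addition, after their values were seen. The genes and lists were chosen with earlier results of these data known.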

Additional observations from a re-analysis of the deposited data

How the results depend on the processing

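The limma count stayed at 0 under all 24 alternatives, of which those on sums up to 1100 held all 21 genes and the others 9 to 28, without *Col1a1*, *Col3a1* and *Serpinh1*. The count of 3 genes beyond a log2 ratio of 0.5 became 0 with a limit of 1, where 0.897% of all genes lie, and 3 higher and 0 lower with centred ratios. The median ratio of 0.05 became -0.0039 when genes with a mean of at least 1 were kept. Centring each library on its median raised the differences by 0.13 for sums of 60 to 400 and by 0.08 for sums up to 1100, and turned *Col6a1* to 0.062, *Col15a1* to 0.018, *Des* to 0.022, *Lum* to 0.021 and *Pdgfrb* to 0.024. Under edgeR *Col6a2* turned to -0.030, *Col27a1* to -0.15 and *Col5a2* to -0.048. The cause of the turns under edgeR was not tested. Leaving out each library in turn, 5 of 21 kept their sign: *Serpinh1* (0.40 to 0.69), *Col1a1* (0.34 to 1.28), *Col1a2* (0.08 to 0.50), *P4ha2* (0.10 to 0.57) and *Col16a1* (0.08 to 0.51). The others ran from -0.15 to 0.93 (*Col3a1*), -0.0024 to 0.71 (*Col4a5*), -0.11 to 0.68 (*Col12a1*), -0.13 to 0.51 (*Col13a1*), -0.60 to 0.77 (*Col5a2*), -0.35 to 0.61 (*Col27a1*), -0.29 to 0.44 (*P4ha1*), -0.10 to 0.27 (*Col6a3*), -0.064 to 0.17 (*Col5a1*), -0.33 to 0.25 (*Col6a2*), -0.28 to 0.26 (*Col6a1*), -0.33 to 0.34 (*Col15a1*), -0.48 to 0.30 (*Des*), -0.22 to 0.20 (*Pdgfrb*), -1.02 to 0.66 (*Lum*) and -0.63 to 0.053 (*Acta2*). The pseudocount and the term for the deepest library of each genotype turned no sign. No paired analysis was possible because the WT and KO pools share 1 replicate number and the recovered libraries carry none. With 3 libraries a side and SEs of 0.312 to 0.794 on the log2 scale, a difference in 1 of the 21 genes would have to be large to pass, and abundant genes such as *Dcn* have no spread here.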

Other observations

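Outside the 52 genes, *Msln* and *Adgre1* were chosen after their values were seen, as the cell markers in a limma fit whose libraries did not overlap. Across all the lists, 4 of 49 genes in a fit had such libraries, beside 5.68% and 5.58% of all genes. *Msln*, the mesothelin gene of the liver's mesothelial covering, had 14.5, 9.65 and 10.2 normalised reads in KO and 18.8, 28.4 and 40.4 in WT (limma estimate -1.24, SE 0.434, unadjusted p = 0.0191, adjusted p = 0.9992). *Adgre1*, the gene of the macrophage receptor F4/80, had 119, 126 and 97.1 in KO and 81.6, 78.5 and 72.1 in WT (limma estimate 0.54, SE 0.306, unadjusted p = 0.113, adjusted p = 0.9995). Neither passed the adjustment. The other portal fibroblast and mesothelium markers in a fit, *Eln*, *Fbln2*, *Thy1* and *Upk3b*, had libraries that overlapped. So did the other Kupffer cell markers in a fit, *Marco* and *Vsig4*. *Clec4f* and *Cd5l*, Kupffer cell markers without reads per library, had log2 ratios of the authors' values of -0.05 and 0.46.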
